A study of Danio rerio with 6 samples.

Results

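The genes described here are 6 names used as markers of macrophages in zebrafish: mfap4, mfap4.1, mpeg1.1, marco, cxcr3.2 and havcr1. They were found by matching these names, whatever the capitals, to the gene names of the deposited table of FPKM values (fragments scaled for transcript length and library size). Of 21837 named rows, 12 matched. The name mfap4 had 8 rows, of which 7 are spelled MFAP4, the names mpeg1.1, marco, cxcr3.2 and havcr1 had 1 row each, and mfap4.1 had 0. The RNA is labelled as that of GFP+ cells from Tg(fli1a:eGFP) embryos at 28 hpf (hours post fertilization), injected with either a control morpholino (control MO, 3 libraries) or a clec16a morpholino (clec16a MO, 3 libraries). All 6 libraries thus share the transgene, in which fli1a regulatory sequence drives the fluorescent protein, and the treatment label "no culture". The groups rest on the genotype label, since the library titles, which begin with Exp2D for control MO and NegaP for clec16a MO, do not name a morpholino. The design text asks how clec16a, which encodes an endolysosomal membrane protein, acts on hematopoietic stem and progenitor cells. Neither the gating nor whether replicates came from separate clutches is stated, so a p-value speaks only for the spread of these libraries, which may be technical.

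The first macrophages of the zebrafish embryo arise from the anterior mesoderm, wander over the yolk, enter the blood and spread into tissues, where they engulf dying cells and microbes. The transcription factor Pu.1, encoded by spi1b, directs myeloid fate, Irf8 favours the macrophage over the neutrophil fate, and signals through the Csf1 receptor act on their spread and survival. The promoters of mpeg1.1 and mfap4 are widely used to label macrophages in transgenic fish. As a marker, each of these genes reports on a cell type only to the extent that other cells in the sample are silent for it. In bulk RNA, a change in the number of macrophages and a change in RNA per macrophage cannot be told apart.

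The values have unknown depth, since FPKM carry no totals, and are relative within a library. Summed over all named rows they came to between 488667 and 546225 FPKM per library. More rows were above 0 in the control MO libraries (19250 to 19317) than in the clec16a MO libraries (15153 to 15871). The targeted gene clec16a read 14.4, 14.1 and 14.3 FPKM in control MO libraries and 5.68, 5.57 and 4.24 FPKM in clec16a MO libraries. Its log2 difference was -1.32, beside a median of -0.66 over all tested rows. It was -0.63 with median centring and -0.80 with quantile normalization. Whether this fall is an effect of the morpholino was not tested. The labelled cell type was checked against fli1a, which read 1096, 1083 and 967 FPKM in control MO libraries and 109, 96.8 and 114 FPKM in clec16a MO libraries. The endothelial transcription factor gene erg read 147 ± 7.26 FPKM in control MO libraries (SD, n = 3) and 0 in all 3 clec16a MO libraries. Of 19 endothelial genes tested, 18 were called lower in the clec16a MO libraries and 1 did not pass the test, where 54.6% of all rows tested were called lower. The low fli1a and the erg values of 0 raise a question about the label of GFP+ cells for the clec16a MO libraries. Signal of fli1a remained there, at 96.8 to 114 FPKM. An exact 0, as for erg, can be a failed estimate. The endothelial genes tek and she were near 0 in the clec16a MO libraries without being listed at 0. tek read 157 ± 5.30 FPKM in control MO and 0.333 ± 0.129 FPKM in clec16a MO libraries (SD, n = 3 each). she read 28.6 ± 0.600 and 0.392 ± 0.0904 FPKM. Rows such as erg, tek and she passed the filter on low values only through the control MO group and could hardly have been called higher. The 19 endothelial genes summed to 5760 to 5766 FPKM in control MO and 1358 to 1634 FPKM in clec16a MO libraries. A large part of the second sum was clec14a, the gene that did not pass the test. It read 858 ± 15.1 and 780 ± 165 FPKM (SD, n = 3 each; limma adjusted p = 0.34). Its log2 difference was 0.53 with median centring and -0.35 with quantile normalization. The files do not settle the label, so clec16a MO below means the libraries labelled so. Each difference below therefore stands beside a wide shift in the kinds of RNA present, and the part of that shift in the macrophage values was not tested.

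mfap4 encodes a secreted protein with a fibrinogen-related domain, and its name carried most of the summed FPKM of the 12 rows in the clec16a MO libraries. The row spelled mfap4, the sixth of that name in the table, was listed at 0 in each control MO library and read 1229, 913 and 1007 FPKM in clec16a MO libraries, with a mean of 1049.7 ± 163 FPKM (SD, n = 3). The groups did not overlap, and the row was called higher (limma adjusted p = 1.64e-08, Benjamini-Hochberg). It ranked 48, 59 and 60 among all named rows of these 3 libraries. The fourth row, spelled MFAP4, was nearly as high, at 1219, 828 and 857 FPKM against 0 in each control MO library. Both rows thus moved from no listed signal to a place among the most abundant transcripts of the clec16a MO libraries.

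The other rows of the name spread over a wide range of levels. The third row read 393, 259 and 288 FPKM, the fifth 99.95, 61.5 and 76.6 FPKM and the first 52.97, 29.1 and 32.6 FPKM in clec16a MO libraries, and all 3 were listed at 0 in each control MO library. These 3 were also called higher (limma adjusted p = 6.29e-08, 2.23e-07 and 9.11e-07). The remaining 3 rows were too low for the test, which took rows averaging 1 FPKM or more over all 6 libraries. The eighth row read 0.0827, 0.0348 and 0 FPKM in control MO libraries and 0.608, 0.955 and 0.698 FPKM in clec16a MO libraries, without overlap. The second read 0.274, 1.45 and 0.0631 FPKM and the seventh 0.0847, 0 and 0.208 FPKM in clec16a MO libraries, both at 0 in each control MO library. Every mfap4 row therefore had its higher mean in the clec16a MO group, although in the seventh row the groups met at 0.

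Summed over its 8 rows, mfap4 stood at 0.0827, 0.0348 and 0 FPKM in control MO libraries. The same sum was 2994, 2092 and 2263 FPKM in clec16a MO libraries, with a mean of 2449.9 ± 479 FPKM (SD, n = 3; limma adjusted p = 1.51e-08 with rows of one name summed). The row spelled mfap4 and the fourth row together held 81.8%, 83.2% and 82.4% of it in the 3 libraries. The division between rows was steady: the third row took 13.1%, 12.4% and 12.7% of the sum and the fifth 3.34%, 2.94% and 3.38%. How the counting shared reads among rows of this name is not stated, so the level of a single mfap4 row and that of the sum are both uncertain.

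In RefSeq's gene table for assembly GRCz12tu, which was used for names and gene order only, mfap4 is an older name of mfap4.1. The row spelled mfap4 may therefore stand for the member mfap4.1. That table holds 13 numbered mfap4 genes, all on 1 chromosome, and 0 of them had a row under the numbered symbol. A search for their older names, made after the values had been seen, found 3 more rows. The row of mfap4.4 was listed at 0 in each control MO library and read 45.9, 29.3 and 32.2 FPKM in clec16a MO libraries (limma adjusted p = 4.59e-07). That of mfap4.10 went from 0 in each control MO library to 8.48, 11.48 and 13.6 FPKM (limma adjusted p = 1.64e-06). That of mfap4.5 was listed at 0 in 5 libraries and at 80.4 FPKM in clec16a MO replicate 2, and was not called (limma adjusted p = 0.26). With these 3 rows the family summed to 3049, 2213 and 2309 FPKM in clec16a MO libraries, and its control MO sum did not change.

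mpeg1.1 encodes perforin-2, a pore-forming protein that acts on engulfed bacteria. It was listed at 0 in each control MO library and read 12.4, 10.4 and 15.02 FPKM in clec16a MO libraries, with a mean of 12.6 ± 2.32 FPKM (SD, n = 3). The groups did not overlap and the row was called higher (limma adjusted p = 7.85e-07). The level was far below that of mfap4: per unit of transcript length, the mfap4 sum was 241, 201 and 151 times mpeg1.1 in the 3 clec16a MO libraries.

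havcr1 encodes a receptor of the TIM family, whose members bind phosphatidylserine on dying cells. It was listed at 0 in each control MO library and read 11.82, 15.4 and 12.7 FPKM in clec16a MO libraries, with a mean of 13.3 ± 1.85 FPKM (SD, n = 3; limma adjusted p = 4.66e-07). All 3 clec16a MO libraries lay above all 3 control MO libraries, as for mpeg1.1. Its relatives timd4 and havcr2 lie close by in the reference gene order. timd4, which encodes another phosphatidylserine receptor, read 3.76, 2.90 and 3.92 FPKM in control MO libraries and 0.920, 1.43 and 0.874 FPKM in clec16a MO libraries. It was called lower, by -1.13 on the log2 scale (SE 0.16; limma adjusted p = 0.00041). This fall was smaller with median centring (-0.44, limma adjusted p = 0.042) and missed the threshold with quantile normalization (-0.20, limma adjusted p = 0.32). havcr2, an inhibitory receptor gene in mammals, was listed at 0 in 5 libraries and at 0.414 FPKM in clec16a MO replicate 2, too low for the test. Of the TIM genes tested, havcr1 was thus called higher and timd4 lower, the latter not with quantile normalization. havcr1 passed the filter on low values only through the clec16a MO group, so it could not have been called lower.

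cxcr3.2 encodes a chemokine receptor that guides macrophages to infected sites in zebrafish. Unlike mpeg1.1, havcr1 and the 5 tested mfap4 rows, it had signal in every control MO library, at 1.28, 0.920 and 1.06 FPKM. The clec16a MO libraries read 2.63, 3.66 and 4.18 FPKM, all above the control MO libraries. The means were 1.09 ± 0.184 and 3.49 ± 0.788 FPKM (SD, n = 3 each), a ratio of 3.21. On the log2(FPKM + 1) scale, which understates the change of such low values, the difference was 1.09 (SE 0.17, limma adjusted p = 0.00057). It was 1.58 with a pseudocount of 0.1 FPKM, 1.78 with median centring and 1.96 with quantile normalization, and was called in each.

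The paralog cxcr3.3, next to cxcr3.2 in the reference gene order, encodes a receptor that acts in zebrafish as a scavenger of the same ligands. It read 0.738, 0.780 and 0.660 FPKM in control MO libraries and 1.16, 0.874 and 0.697 FPKM in clec16a MO libraries, where the groups overlap, and was below the filter. Of 9 ligand gene names of this receptor family that were looked up, 2 had rows. The 2 rows of cxcl11.6 were at or below 0.352 FPKM in each library. cxcl20 read 10.7 ± 0.868 and 6.36 ± 2.08 FPKM (SD, n = 3 each; log2 difference -0.70, limma adjusted p = 0.021). That call was lost after median centring, at -0.01 with a limma adjusted p of 0.96, and after quantile normalization, at -0.14 with a limma adjusted p of 0.53. It was also lost without control MO replicate 2 or 3 (limma adjusted p = 0.079 and 0.065). The only ligand gene tested, cxcl20, was thus not called higher beside the receptor gene, and the other ligand genes could not be judged.

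marco encodes a class A scavenger receptor that takes up bacteria and particles. It was listed at 0 in 5 libraries and at 0.102 FPKM in clec16a MO replicate 2, and was too low for the test. Among the 5 names with a row it was thus the lowest in the clec16a MO libraries. Of 20 names of paralogs of the members looked up, 4 had a row: timd4, havcr2, cxcr3.3 and scara5. The scavenger receptor gene scara5 was listed at 0.0419 FPKM in control MO replicate 1 and at 0 in every other library, too low for the test.

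**Figure D1:**
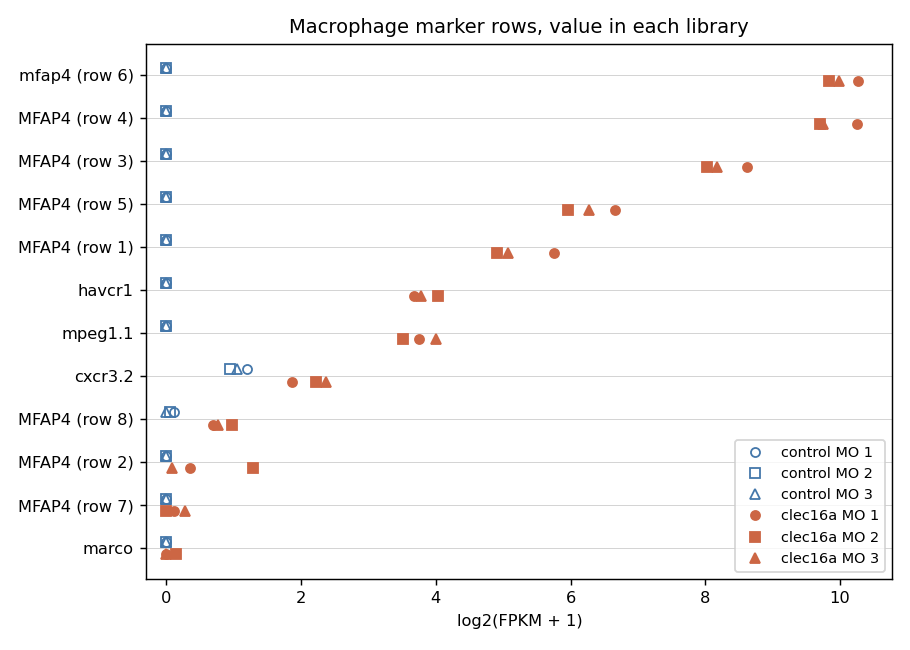
Each of the 12 macrophage marker rows is plotted with its value in each library on a log2(FPKM + 1) axis, open blue marks for control MO and filled orange marks for clec16a MO, rows ordered by the clec16a MO mean and numbered in the order of the table. Apart from cxcr3.2, at 0.920 to 1.28 FPKM, and the low eighth MFAP4 row, the control MO marks sit at 0, while the clec16a MO marks run from 0 for marco to 1229 FPKM for mfap4.

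In order of their level in the clec16a MO libraries, the names ran mfap4, havcr1, mpeg1.1, cxcr3.2 and marco. havcr1 and mpeg1.1 did not differ beyond their spread, with ranges of 11.82 to 15.4 and 10.4 to 15.02 FPKM, and their ratio was 0.952, 1.48 and 0.846 in the 3 libraries. The ranges of the other neighbours in this order did not overlap. In the control MO libraries cxcr3.2 was the highest name, followed by the mfap4 sum at 0.0392 ± 0.0415 FPKM, and the others were listed at 0. All 12 rows together summed to 1.37, 0.955 and 1.06 FPKM in control MO libraries and to 3021, 2122 and 2295 FPKM in clec16a MO libraries. That was 0.000271%, 0.000191% and 0.000218% of the summed FPKM in the first group and 0.553%, 0.426% and 0.439% in the second. Without the mfap4 rows, the clec16a MO sums were 26.9, 29.5 and 31.9 FPKM.

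Of the 12 rows, 8 passed the filter on low values, and limma called all 8 of these higher in the clec16a MO libraries and 0 lower. Across all rows, 26.7% of the 12153 rows tested were called higher, so a call in this direction was common. Likewise 27.6% of the rows tested had every clec16a MO library above every control MO library, as these 8 had. All of these rows but cxcr3.2 passed the filter only through the group in which they were high, so they could not have been called lower, and the count carries little weight of its own. The values themselves are the description: a level listed at 0 in each control MO library against 10.4 to 1229 FPKM in clec16a MO libraries for the 7 rows. The median log2 difference over all tested rows was -0.66, and it was 0.03 with median centring and -0.04 with quantile normalization. The 8 rows were called higher under both of those scalings.

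A listing at 0 in every control MO library with signal in every clec16a MO library was rarer than a call, at 1.05% of the rows tested (128 rows). Of the 8 tested member rows, 7 had this pattern: 5 of mfap4, mpeg1.1 and havcr1. These 7 passed the filter only through the clec16a MO group, and the members were chosen with earlier results of these data known. The count beside 1.05% is therefore a description and carries little weight. Ranked by clec16a MO mean among those 128 rows, the mfap4 rows stood 1st, 2nd, 4th, 9th and 14th, havcr1 29th and mpeg1.1 31st. An exact 0 in such a table can be a failed estimate. Of 144 rows of ribosomal protein, nuclear pore and proteasome genes, 1 was listed at 0 in every control MO library (psmb12) and 1 in every clec16a MO library (nup54, at 39.5 ± 0.672 FPKM in control MO libraries). Genes listed at 0 are therefore given by their values, with no fold.

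**Figure D2:**
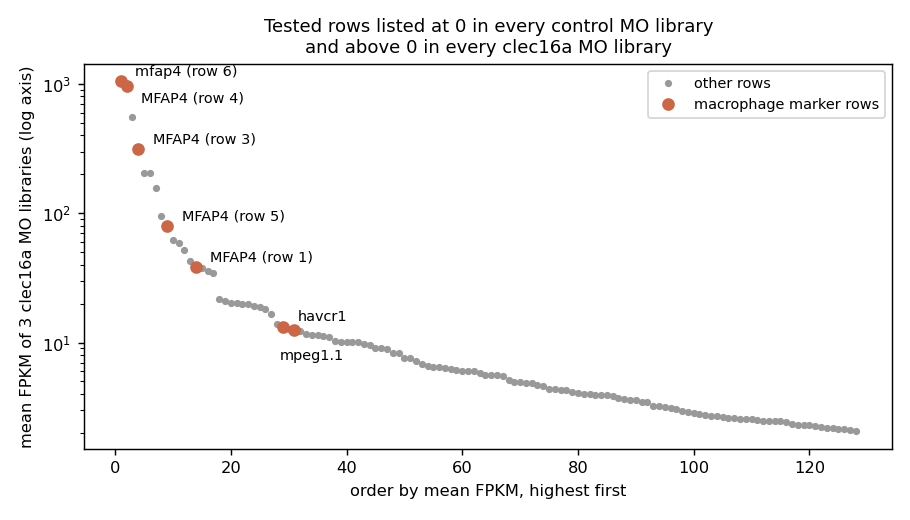
The 128 tested rows that were listed at 0 in each control MO library and above 0 in each clec16a MO library are ordered along the horizontal axis, with the mean FPKM of the 3 clec16a MO libraries on a log axis. The orange points are the 7 macrophage marker rows among them, and the row spelled mfap4 and the fourth MFAP4 row hold the 1st and 2nd place at 1049.7 and 968 FPKM.

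The members were not all highest in the same clec16a MO library. Relative to its own mean, the mfap4 sum was highest in replicate 1, at 122%, against 85.4% in replicate 2 and 92.4% in replicate 3. mpeg1.1 was highest in replicate 3, at 119%, and lowest in replicate 2, at 82.4%. havcr1 was highest in replicate 2, at 116%, and cxcr3.2 lowest in replicate 1, at 75.4%, and highest in replicate 3, at 120%. The summed FPKM of all rows was 105%, 95.4% and 100.04% of its mean in the same libraries. Each of the 5 tested mfap4 rows was highest in replicate 1 and lowest in replicate 2. With 3 libraries, no relation between members inside a group could be tested.

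**Figure D3:**
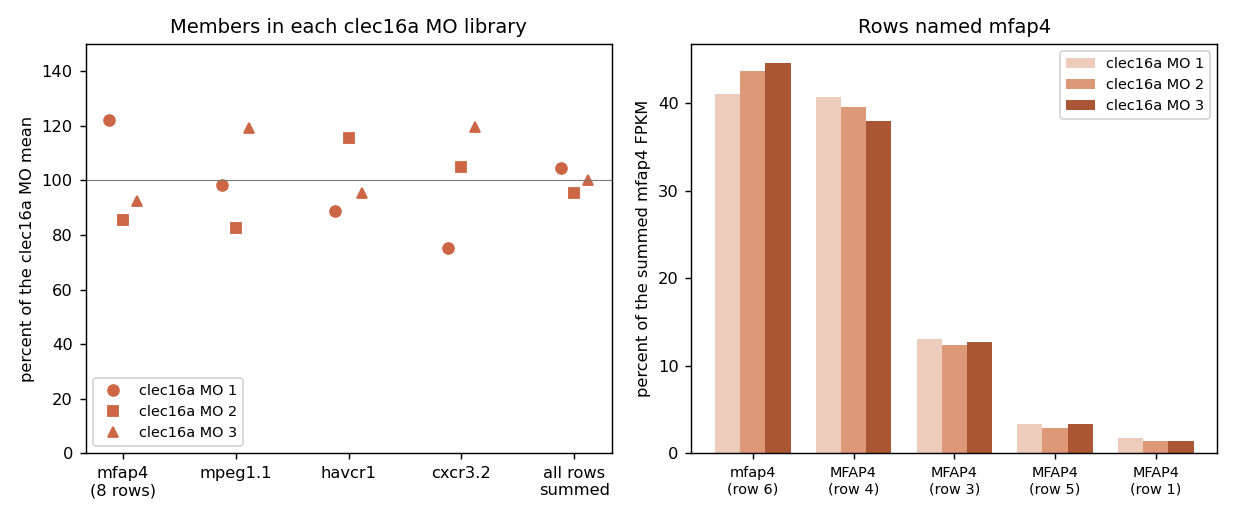
On the left, each clec16a MO library is shown as a percent of the mean of the 3 clec16a MO libraries, for 4 member names and for the summed FPKM of all rows; mfap4 is highest in replicate 1 (122%) and mpeg1.1 and cxcr3.2 in replicate 3 (119% and 120%). On the right, bars give the share of the summed mfap4 FPKM held by each of its 5 tested rows, and the 3 libraries divide it alike, with 41.0% to 44.5% in the row spelled mfap4.

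Likeness to each member was measured as the Euclidean distance between log2(FPKM + 1) values over the 6 libraries, among 10000 other tested rows with a gene symbol. Nearest to mpeg1.1 was sla1a, a Src-like adaptor gene, at a distance of 0.22. sla1a was listed at 0 in each control MO library and read 13.6, 11.25 and 16.7 FPKM in clec16a MO libraries. Next were the NADPH oxidase subunit gene ncf1 (0.35) and the interferon-induced gene ifitm1 (0.41). Nearest to havcr1 was ch25hl2, a cholesterol 25-hydroxylase-like gene (0.25), with 0 in each control MO library and 11.303, 12.9 and 12.4 FPKM, then sla1a (0.59) and ifitm1 (0.63). For cxcr3.2 the nearest rows were the chaperone gene dnajb2 (0.31), the triglyceride synthesis gene dgat1b (0.37) and nsmaf (0.37). dnajb2 read 1.28 FPKM on average in the control MO and 3.77 FPKM in clec16a MO libraries. No row lay close to the mfap4 sum: the nearest were hdr (3.12), the lysozyme gene lyz (3.86) and the erythroid gene hemgn (4.21). For marco the rule gave no like row, since each candidate had a mean of at least 1 FPKM and the nearest was 2.41 away.

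Of 14 regulators of macrophage formation, 9 were tested, with 4 called higher, 4 lower and 1 not called, and a median log2 difference of 0.10 beside -0.66 over all tested rows. Over all rows, 26.7% were called higher and 54.6% lower. With median centring and with quantile normalization, 5 were called higher and 3 lower. spi1b, which encodes Pu.1, read 0.0715, 0.104 and 0.111 FPKM in control MO libraries and 21.3, 19.4 and 16.3 FPKM in clec16a MO libraries (limma adjusted p = 3.48e-07). Its relative spi1a rose from 0.0259 ± 0.0448 to 3.52 ± 1.14 FPKM (SD, n = 3; limma adjusted p = 4.04e-05). il34, which encodes a ligand of the Csf1 receptor, rose from 0.742, 0.752 and 0.933 FPKM to 23.2, 22.9 and 18.2 FPKM (limma adjusted p = 6.18e-07). spi1b, spi1a and il34 averaged below 1 FPKM in the control MO libraries, so they passed the filter only through the clec16a MO group. They could hardly have been called lower, and the count of higher calls carries little weight of its own. The Csf1 receptor genes themselves were almost without signal. csf1ra was listed at 0 in 5 libraries and at 0.190 FPKM in clec16a MO replicate 3, and csf1rb read 0.439, 0.205 and 0.224 FPKM in control MO libraries and 0, 0.0342 and 0 FPKM in clec16a MO libraries. Thus mfap4, mpeg1.1, havcr1 and spi1b were present in the clec16a MO libraries beside csf1ra and csf1rb at or near 0.

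The transcription factor gene irf8 did not rise with the markers. It read 6.52 ± 0.302 FPKM in the control MO and 3.32 ± 1.28 FPKM in clec16a MO libraries (SD, n = 3 each; log2 difference -0.85, SE 0.24, limma adjusted p = 0.012). That call was lost after median centring, at -0.15 with a limma adjusted p of 0.56, and after quantile normalization, at -0.10 with a limma adjusted p of 0.66. The C/EBP gene cebpb, which acts in many cell types, fell from 204 ± 3.70 to 43.7 ± 3.99 FPKM (limma adjusted p = 8.92e-07), while cebpa rose from 36.5 ± 1.18 to 66.7 ± 7.60 FPKM (limma adjusted p = 0.00022). Both were abundant in the control MO libraries, where the 6 marker names summed to no more than 1.37 FPKM.

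Of 34 names of genes of macrophage function looked up, 28 had a row and 20 were tested, with 7 called higher, 9 lower and 4 not called, and a median log2 difference of -0.22. These counts lie near the shares over all rows, 26.7% higher and 54.6% lower. Median centring turned the balance to 10 called higher against 7 lower, and quantile normalization gave 8 in each direction. Among those higher were tnfb, a tumour necrosis factor gene, from 0.645 ± 0.120 to 6.65 ± 0.946 FPKM, and the acid phosphatase gene acp5a, from 0.132 ± 0.0210 to 3.91 ± 0.914 FPKM (SD, n = 3 each). The galectin gene lgals2a rose from 0.948 ± 0.146 to 7.32 ± 1.25 FPKM, and each of these 3 had a limma adjusted p of 1.11e-05 or less. The cathepsin gene ctss2.1 was listed at 0 in each control MO library and read 3.35, 2.57 and 1.68 FPKM in clec16a MO libraries. The chemokine gene ccl34a.4 likewise went from 0 in each to 5.15, 2.52 and 7.16 FPKM. Both were called higher (limma adjusted p = 6.04e-05 and 0.00013). tnfb, acp5a, lgals2a, ctss2.1 and ccl34a.4 averaged below 1 FPKM in the control MO libraries and passed the filter only through the clec16a MO group. They could hardly have been called lower. Of the other 2 called higher, cd83 also began low, at 1.13 ± 0.169 FPKM, whereas apoeb, an apolipoprotein gene, was abundant throughout and rose from 616 ± 8.86 to 956 ± 121 FPKM (limma adjusted p = 0.00111).

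Those called lower included receptors and lysosomal enzymes with signal in the control MO libraries. mertka, which encodes a receptor for dying cells, fell from 2.42 ± 0.109 to 0.142 ± 0.124 FPKM (limma adjusted p = 1.24e-05). Its log2 difference of -1.59 was -0.53 with quantile normalization. slc7a7 fell from 5.34 ± 0.512 to 0.943 ± 0.531 FPKM (limma adjusted p = 0.00016). Both averaged below 1 FPKM in the clec16a MO libraries and passed the filter only through the control MO group. They could hardly have been called higher. The tetraspanin gene cd9b fell from 13.2 ± 0.415 to 2.65 ± 0.577 FPKM and the galectin gene lgals3a from 83.3 ± 1.14 to 21.5 ± 3.80 FPKM (limma adjusted p = 1.05e-05 and 9.98e-06). Of the 9 called lower, timd4, described above, lost its call with quantile normalization, ctsz lost its call with median centring, and scarb1 with median centring, a pseudocount of 0.1 FPKM, no filter on low values, and without each of 4 libraries in turn; with quantile normalization scarb1 was higher (0.47, limma adjusted p = 0.027). The complement genes c1qb and c1qc, known from mature macrophages and microglia, did not exceed 0.818 and 0.364 FPKM in any library. p2ry12, a microglial receptor gene, did not exceed 0.235 FPKM. The summed level of the list was 2244 to 2273 FPKM in the control MO and 2281 to 2520 FPKM in clec16a MO libraries. A few abundant genes held most of it, among them apoeb, at 616 ± 8.86 and 956 ± 121 FPKM. The sum therefore does not describe the other genes of the list.

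**Figure D4:**
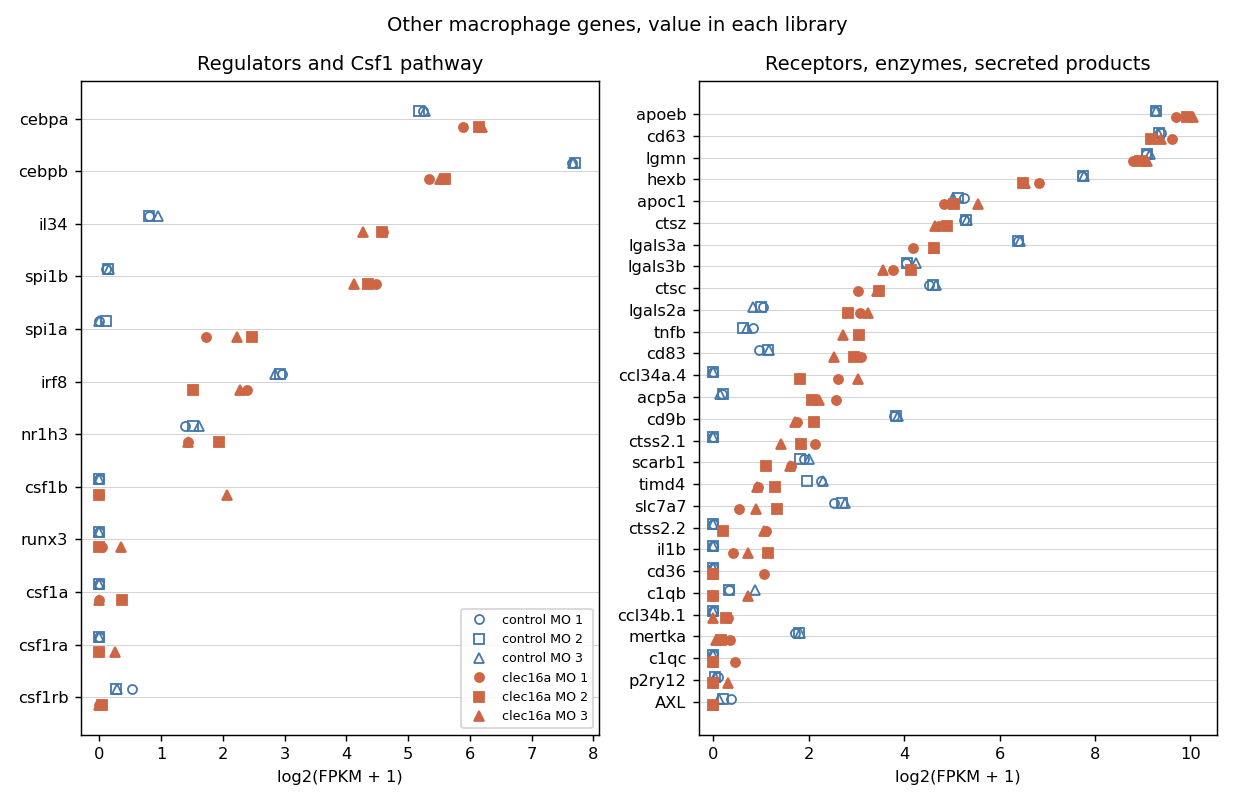
Values in each library on a log2(FPKM + 1) axis are shown for 12 of the 14 regulators of macrophages (left) and for 28 macrophage receptors, enzymes and secreted products (right), open blue marks for control MO and filled orange marks for clec16a MO. spi1b, il34, tnfb and acp5a lie to the right in clec16a MO, cebpb, mertka and cd9b lie to the left, and csf1ra and csf1rb stay near 0.

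Most tested genes of other blood cells were called higher in the same libraries, where 26.7% of all rows tested were called higher. Of 21 genes shared by white blood cells, 17 were tested and 14 called higher, 0 lower, with a summed level of 224 to 231 FPKM in the control MO and 643 to 666 FPKM in clec16a MO libraries. Of 15 neutrophil genes, 11 rows were tested and 11 called higher, with sums of 92.2 to 98.3 FPKM in the control MO and 1189.6 to 1664 FPKM in clec16a MO libraries. Tested rows of both lists that averaged below 1 FPKM in the control MO libraries passed the filter only through the clec16a MO group. They include the rows listed at 0 there and made up most of the pan-leukocyte rows called higher. Such rows could hardly have been called lower, so these counts carry little weight of their own. The erythroid list, with 15 of 15 higher, summed to 1544 to 1730.4 FPKM in the control MO and 21285 to 36267 FPKM in clec16a MO libraries. Genes of arch mesenchyme, another site of fli1a activity, were tested for 6 of 9, with 1 higher, 4 lower and 1 not called, beside 54.6% of all rows lower. The 4 called lower averaged below 1 FPKM in the clec16a MO libraries and passed the filter only through the control MO group. These 4 could hardly have been called higher, so the count of lower mesenchyme genes carries little weight of its own. Both sox9a and sox10 were listed at 0 in each clec16a MO library. The pan-leukocyte gene ptprc read 0.169, 0.191 and 0.211 FPKM in the control MO and 1.498, 2.13 and 1.07 FPKM in clec16a MO libraries, below the filter. Several listed genes, such as spi1b and the NADPH oxidase genes, are active in neutrophils as well as in macrophages. The part of neutrophils and red cells in the macrophage marker values was not tested.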

How the data were processed

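RNA of GFP+ cells was made into cDNA with an oligo(dT)-primed SMARTer kit, per the labels' protocols. The authors deposited 1 table of FPKM per gene and library; the submitters' processing notes list HISAT2 2.2.1, StringTie 2.1.6 and cutadapt 1.9, and for the build of the genome and its annotation the sources used here give nothing. Of 21853 rows, 16 named by a date (gene names altered by a spreadsheet) were dropped, and 21837 were used, of which 503 repeat a name. Rows of a repeated name were kept apart and also summed. Ratios of low values between libraries showed no steps of whole reads (the commonest ratio held 0.202% to 0.455% of rows under 1 FPKM), so depth is unknown and no count test was run.

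The deposited FPKM were turned here into log2(FPKM + 1), which understates the change of low genes. Rows averaging 1 FPKM or more (12153) were tested between the groups with limma 3.58.1 (trend, R 4.3.3), with Benjamini-Hochberg adjustment over all of them and a threshold of 0.05. The procedure was run on simulated data in which only a small part of the rows was changed. That setting differs from these data, in which most tested rows were called. Groups came from the genotype label. Tables and figures were made with Python 3.11.15, pandas 2.3.3, NumPy 2.4.6 and matplotlib 3.10.9. Row names matched reference tables in 17926 of 21837 cases.

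The members and the 9 gene lists were chosen with earlier results of these data known. The rule for naming genes took every member row and paralog, up to 6 genes per list with the smallest adjusted p, the 3 rows nearest to each member, and clec16a and fli1a; for the lists of other cell types most of these are only counted. The other genes named (older-name mfap4 rows, irf8, cebpa, the csf1 receptor genes, ctss2.1, ctsz, scarb1, slc7a7, cd83, ccl34a.4, apoeb, c1qb, c1qc, p2ry12, ptprc, clec14a, sox10, nup54 and psmb12) were chosen after their values were seen. The lists for regulators and effectors share genes with neutrophils and other cells. Of the regulators called lower, 2 that the rule takes are counted but not reported here. Alternatives were another pseudocount, other filters, median centring, quantile normalization, a replicate block, summed rows, and leaving out each library in turn.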

Additional observations from a re-analysis of the deposited data

How the results depend on the processing

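The 8 macrophage marker rows tested were all called higher under both scalings, with the replicate block and without each library in turn; 9 rows were called with no filter, 7 with a mean of at least 5 FPKM, and 4 with rows of one name summed, which leaves fewer rows by construction. Leaving out the mfap4 rows took the summed marker level in the clec16a MO libraries to 29.4 FPKM. Over all rows, 3239 were called higher and 6638 lower; median centring split the calls as 4819 and 4632, quantile normalization as 4614 and 4835, and the lower calls numbered 10430 with no filter and 3472 with a mean of at least 5 FPKM. That stricter filter tests fewer genes: macrophage effector genes higher and lower became 1 and 5, pan-leukocyte genes higher 8, and mesenchyme genes higher and lower 0 and 2. Mesenchyme genes higher numbered 2 with median centring and 2 with quantile normalization, and 1 to 2 without each library, 2 without clec16a MO replicate 2. Endothelial genes higher numbered 1 with median centring. The cause of the changes under scaling was not tested. The fall of ctsz turned to 0.16 (log2) with median centring, and that of scarb1 to 0.23 with median centring and 0.47 with quantile normalization; none of the 8 tested marker rows changed sign under an alternative that tested it.

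The replicate numbers did not pair the libraries: deviations of same-numbered libraries correlated at 0.0437, -0.0178 and 0.00542, and not every library correlated best with its own number. With the replicate block, 8 marker rows were called higher, and 3239 rows were called higher and 6604 lower in all. Unknown depth means that a listing at 0 carries no upper limit.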
